A study of Mus musculus with 10 samples.

Results

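The markers described here were 10 genes chosen by name as markers of pericytes and vascular smooth muscle cells: Pdgfrb, Rgs5, Cspg4, Acta2, Tagln, Myh11, Cnn1, Notch3, Des and Mcam. Each matched exactly 1 of the 56748 genes of the deposited table, and 8 of the 10 were among the 14270 genes with enough counts to be tested. Rgs5 and Cnn1 were too low for the test across all genes and are described by their counts in each library. Several of the markers, Pdgfrb, Cspg4, Mcam and Acta2 among them, are also made by fibroblasts and progenitor cells. Pericytes and vascular smooth muscle cells, together called mural cells, wrap the endothelial tube of small and large vessels. Pericytes are held on capillaries by PDGF-B from endothelial cells, which acts on the receptor PDGFRB, and smooth muscle cells carry a contractile apparatus whose genes are driven by serum response factor (SRF) and its myocardin-family partners. Notch ligands on endothelial cells act on NOTCH3 of mural cells, and in fat depots mural and other perivascular cells lie beside the progenitors that give rise to adipocytes.

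RNA-seq covered primary adipocytes differentiated in culture from the stromal vascular fraction (SVF) of inguinal fat, with 5 control and 5 Ad-Fam20c–KO libraries. Control mice carried the floxed Fam20c gene (genotype Fam20c-flox), KO mice carried the same floxed gene plus Adipoq-Cre (Fam20c-flox/Adipoq-Cre), and the cells of both groups went through the same adipogenic differentiation. The study's methods give male donors 6 to 8 weeks old and 6 to 8 days of differentiation. Adipoq-Cre is driven by the adiponectin gene's regulatory sequence, which is active in adipocytes, while the culture starts from all cells of the SVF that attach and grow. The comparison asks which transcripts depend on Fam20c, a kinase of the secretory pathway, in adipocytes. The published legend of this experiment gives a smaller group size than the 5 libraries per group of the table and the labels, and all 10 libraries were used here. Neither the labels nor the methods say whether the 5 libraries of a group came from separate mice, so the p-values measure the spread between these libraries.

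Library totals were 18949106 to 26237825 counts in control and 19883101 to 23291792 counts in KO cultures. Fam20c itself was at 10.2 ± 1.29 CPM (a gene's counts relative to the library's total after TMM scaling, SD, n = 5) in control and 7.30 ± 0.449 in KO libraries, and it was lower in KO at an adjusted p of 0.0137 (quasi-likelihood test of edgeR, Benjamini-Hochberg adjustment over all genes tested, used throughout). Control library 4 and KO library 1 separated from the other 8 libraries on the first principal component, with 23.5% of the variance. The label primary adipocytes matched the marker levels: the 15 adipocyte markers summed to 41602 to 45479 CPM, Fabp4 the highest of them at 20805 CPM in control cultures, against 212 to 312 CPM for the sum of the 10 mural markers.

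None of the 8 tested mural markers passed an adjusted p of 0.05 in KO against control cultures with edgeR, DESeq2 or limma voom. Over all 14270 genes tested, 1.86% were lower and 0.308% were higher at that limit. At an unadjusted p under 0.05, 3 of the 8 were lower (Tagln, Notch3 and Acta2) and 0 were higher, beside 7.46% of all genes lower and 4.43% higher. A 2-sided exact permutation test of mean log2 CPM, also unadjusted, gave p = 0.0397 for Tagln, 0.0397 for Notch3 and 0.135 for Acta2. The log2 fold changes of the 8 ran from -0.49 (Tagln) to 0.04 (Mcam), with 7 below 0 and a median of -0.10, beside a median of -0.00 over all genes. The libraries of both groups overlapped for each of the 10 markers. All 5 KO libraries lay below all 5 control libraries for only 2.66% of the genes tested. At so small a share, overlap in 10 genes says little about these markers. The marker with the largest difference, Rgs5, was also among those with the fewest counts. In these bulk libraries, fewer cells of a type and less of a transcript per cell cannot be told apart.

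**Figure D1:**
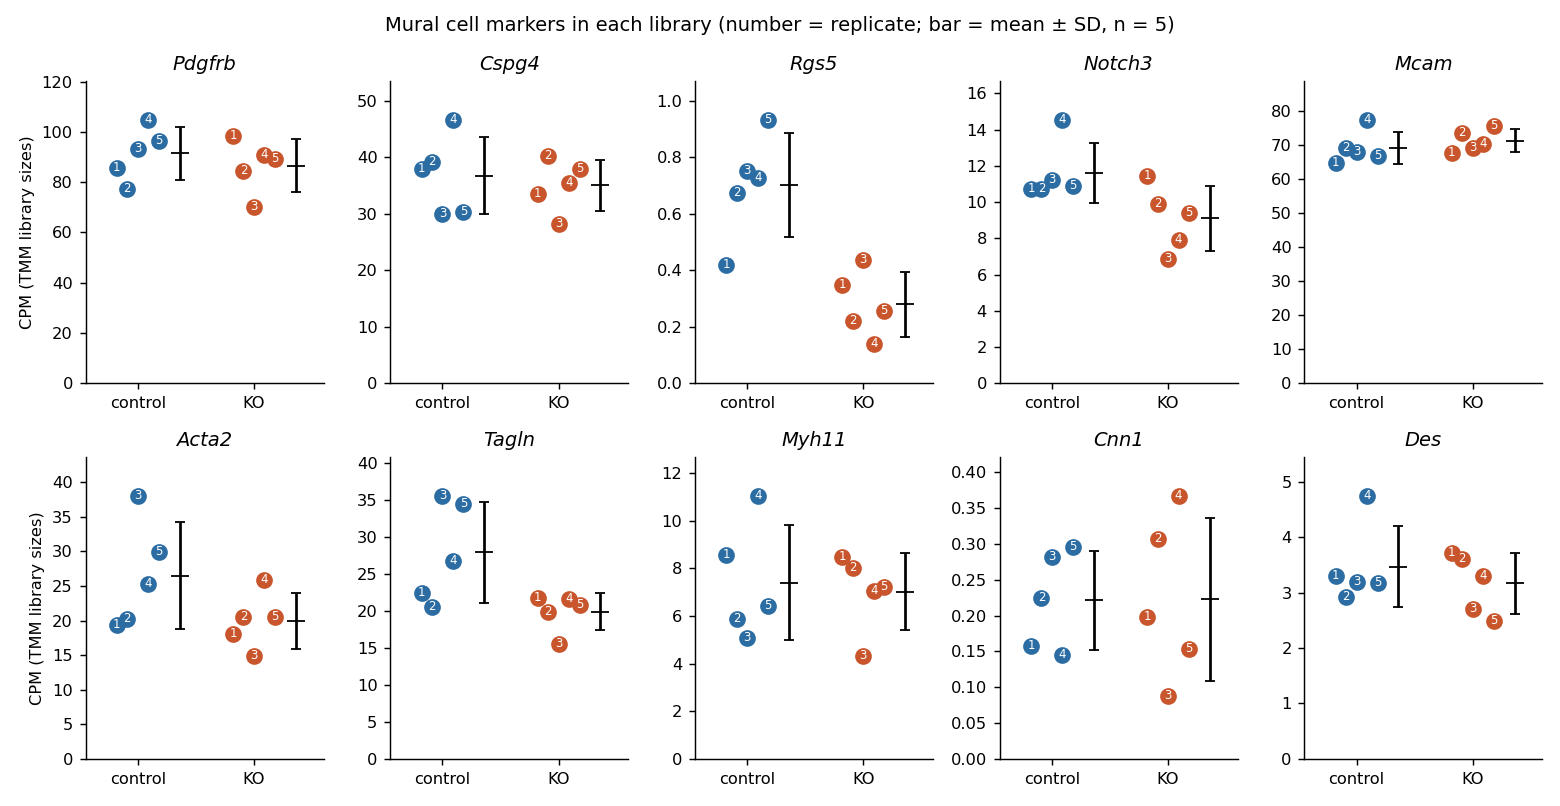
CPM (vertical axis, starting at 0, with its own scale in each panel) of the 10 mural markers in the control (blue) and KO (orange) libraries, where the number in a point is the replicate and the bar is the mean ± SD of 5 libraries. The groups overlap in each panel, Rgs5 has 4 of 5 KO libraries below the lowest control library, and control library 4 is the highest point for Pdgfrb, Cspg4, Notch3, Mcam, Myh11 and Des.

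Of the receptor and surface protein genes among the 10 markers, none of those tested passed the limit. Pdgfrb (ENSMUSG00000024620.12, chromosome 18, 61045150 to 61085061, plus strand of GRCm38) encodes the PDGF receptor beta, which pericytes need to be recruited to vessels. Its CPM was 85.6, 77.4, 93.4, 104.6 and 96.6 in control libraries 1 to 5 and 98.2, 84.7, 69.96, 90.7 and 89.3 in KO libraries 1 to 5. Apart from KO library 3, which was lowest of the 10, the KO libraries lay within the range of the control libraries. The 5 control libraries averaged 91.5 ± 10.4 CPM (SD) and the 5 KO libraries 86.6 ± 10.5 CPM (SD). The log2 fold change was -0.08 with a 95% interval of -0.28 to 0.12 (adjusted p = 0.836).

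Cspg4 (ENSMUSG00000032911.7, chromosome 9, 56865033 to 56899870, plus strand) encodes the proteoglycan NG2, a surface marker of pericytes. Control libraries 1 to 5 had 37.9, 39.2, 30.0, 46.6 and 30.4 CPM, and KO libraries 1 to 5 had 33.5, 40.2, 28.2, 35.5 and 37.9 CPM. The control libraries held both the highest value, in library 4, and a low pair, libraries 3 and 5, and the KO values lay between or just under these. Its log2 fold change was -0.07 (95% interval -0.34 to 0.20, adjusted p = 0.909), and it turned to 0.030 without control library 4 and to 0.0018 without KO library 3.

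Mcam (ENSMUSG00000032135.16, chromosome 9, 44134469 to 44142727, plus strand) encodes the adhesion molecule CD146 of pericytes, smooth muscle and endothelial cells. It was the steadiest of the 10 markers, with a coefficient of variation of 6.91% in control and 4.64% in KO libraries. Its CPM was 64.7, 69.1, 68.1, 77.3 and 67.0 in control libraries 1 to 5 and 67.8, 73.7, 69.1, 70.3 and 75.7 in KO libraries 1 to 5. No KO library lay outside the control range, and the log2 fold change was 0.04 with the narrowest interval of the tested markers, -0.07 to 0.16 (adjusted p = 0.851).

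Rgs5 (ENSMUSG00000026678.11, chromosome 1, 169655501 to 169695813, plus strand) encodes a regulator of G protein signaling that is among the most selective transcripts of pericytes. It had 8, 18, 16, 15 and 22 counts in control libraries 1 to 5 and 7, 5, 10, 3 and 5 counts in KO libraries 1 to 5. Scaled to library size these were 0.420, 0.675, 0.752, 0.725 and 0.930 CPM in control and 0.347, 0.220, 0.436, 0.137 and 0.254 CPM in KO cultures. KO library 3 lay above control library 1, and the other 4 KO libraries lay below all 5 control libraries. The 5 control libraries averaged 0.700 ± 0.184 CPM (SD) and the 5 KO libraries 0.279 ± 0.116 CPM (SD), a ratio of 0.398. The difference of mean log2 CPM was -1.12 (2-sided exact permutation test over 252 assignments, p = 0.0159). This p is not adjusted, the test was computed for all 10 markers, and the smallest p possible is 0.00794. When all genes with at least 1 count were tested, Rgs5 had a log2 fold change of -1.32 with a 95% interval of -2.02 to -0.62 and an adjusted p of 0.0569, just outside the limit that 1.05% of those genes passed in the lower direction. It passed the limit in the fits without control library 1, its lowest control (-1.44, adjusted p = 0.0313), or KO library 3, its highest KO library (-1.55, adjusted p = 0.0349). In the other 4 single-library fits in which it had enough counts to be tested, the adjusted p was 0.0609 to 0.130. Its counts exceeded the filter's minimum of 10 only in control libraries 2 to 5. Rgs5 thus entered these fits through the group where it was higher, and they are given as description only.

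**Figure D2:**
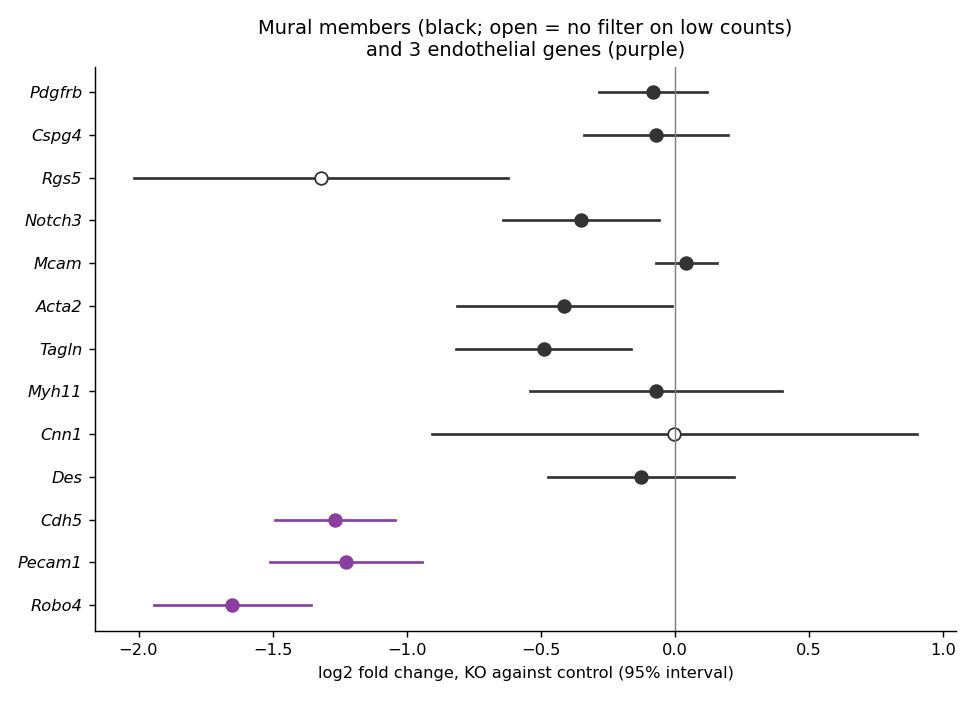
Log2 fold change of KO against control (horizontal axis, 0 meaning no difference) with its 95% interval from edgeR's quasi-likelihood test for the 10 mural markers in black, open where the marker was tested without a filter on low counts, and for 3 endothelial genes in purple. The intervals of Tagln, Notch3, Acta2 and Rgs5 lie below 0 before adjustment, that of Cnn1 spans -0.91 to 0.90, and those of the 3 endothelial genes lie below all mural markers but Rgs5.

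Notch3 (ENSMUSG00000038146.9, chromosome 17, 32120820 to 32166852, minus strand) encodes the Notch receptor of mural cells, required for smooth muscle of small arteries. Its CPM was 10.7, 10.7, 11.2, 14.5 and 10.9 in control libraries 1 to 5 and 11.5, 9.88, 6.85, 7.93 and 9.42 in KO libraries 1 to 5. Control values were tight but for library 4, KO library 1 lay inside the control range, and the other 4 KO libraries lay below all control libraries. The 5 control libraries averaged 11.6 ± 1.64 CPM (SD) and the 5 KO libraries 9.11 ± 1.78 CPM (SD). Its log2 fold change of -0.35 (standard error 0.134, 95% interval -0.64 to -0.06) had an unadjusted p of 0.0217 in edgeR's fit and an adjusted p of 0.287, so it did not pass the limit. Gm17276, a gene on the opposite strand, overlaps Notch3. Des and Mcam each overlap 1 opposite-strand gene and Tagln 2, and the strand setting of the counting is not given in the sources used here.

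Of 20 other genes of Notch signaling, 19 were tested, 4 were lower and 0 were higher, with a median log2 fold change of -0.15. Over all genes tested, 1.86% were lower and 0.308% higher. Dll4, the Notch ligand of endothelial tip and arterial cells, went from 5.87 ± 1.44 to 2.09 ± 0.641 CPM (SD, n = 5 each, log2 fold change -1.49, adjusted p = 0.00187). Nrarp, a feedback target of Notch signaling, changed by -1.36 on the log2 scale (adjusted p = 0.00134), the glycosyltransferase gene Mfng by -0.93 (adjusted p = 0.0038), and the endothelial receptor gene Notch4 by -0.65 (adjusted p = 0.0288). Jag1, a ligand that mural and endothelial cells both make, was at 43.1 ± 4.66 and 41.5 ± 2.94 CPM (SD, n = 5 each, adjusted p = 0.871). Heyl, a target gene of NOTCH3 in mural cells, was at 1.52 ± 0.231 and 0.898 ± 0.280 CPM in the same order (SD, n = 5 each) with an adjusted p of 0.105. Adam10, which cleaves Notch receptors and was the most abundant gene of the list, had a log2 fold change of -0.03 (adjusted p = 0.866).

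The contractile markers split into a pair with lower KO means and others with nearly equal means. Acta2 (ENSMUSG00000035783.10, chromosome 19, 34241090 to 34255590, minus strand) encodes smooth muscle alpha-actin, which myofibroblasts also make. Its CPM was 19.3, 20.2, 38.0, 25.2 and 29.9 in control libraries 1 to 5 and 18.0, 20.5, 14.8, 25.9 and 20.5 in KO libraries 1 to 5. Control libraries 3 and 5 were the highest of the 10, while control libraries 1 and 2 were as low as most KO libraries. The 5 control libraries averaged 26.5 ± 7.70 CPM (SD) and the 5 KO libraries 19.9 ± 4.05 CPM (SD). The log2 fold change was -0.41 (standard error 0.185, 95% interval -0.81 to -0.01, adjusted p = 0.405), and without control library 3 it was -0.25.

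Tagln (ENSMUSG00000032085.6, chromosome 9, 45929619 to 45936058, minus strand) encodes transgelin, also called SM22 alpha, an actin-binding protein of smooth muscle. Control libraries 1 to 5 had 22.4, 20.6, 35.5, 26.7 and 34.5 CPM, and KO libraries 1 to 5 had 21.7, 19.9, 15.6, 21.6 and 20.8 CPM. Again control libraries 3 and 5 were high and KO library 3 was lowest. All KO libraries lay below control libraries 1, 3, 4 and 5, and 3 of them lay above control library 2. The 5 control libraries averaged 27.9 ± 6.82 CPM (SD) and the 5 KO libraries 19.9 ± 2.54 CPM (SD). Its log2 fold change of -0.49 (standard error 0.151, 95% interval -0.82 to -0.16) was the largest of the 8 tested markers, with an unadjusted p of 0.00675 in edgeR's fit and an adjusted p of 0.157. The adjusted p was 0.0525 with DESeq2, 0.0584 with no filter on low counts and 0.0629 to 0.357 with 1 library left out.

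Acta2 and Tagln are textbook targets of SRF, which binds the CArG box. The promoter window of Acta2, from 250 bases before to 50 bases after the RefSeq start on GRCm38.p6, is shown because Acta2 and Tagln had the same highest and lowest library. That of Cspg4 is shown because it is the only other marker with a CArG-like match, and that of Rgs5 because Rgs5 differed most. The Acta2 window is the minus strand of chr19:34255324-34255623, the Cspg4 window the plus strand of chr9:56864854-56865153, and the Rgs5 window the plus strand of chr1:169655251-169655550. Capitals mark CArG boxes with at most 1 mismatch, TGGGAA (the core bound by RBPJ, the nuclear partner of Notch) and GGAATG (the core bound by TEAD factors), searched on both strands.
Acta2: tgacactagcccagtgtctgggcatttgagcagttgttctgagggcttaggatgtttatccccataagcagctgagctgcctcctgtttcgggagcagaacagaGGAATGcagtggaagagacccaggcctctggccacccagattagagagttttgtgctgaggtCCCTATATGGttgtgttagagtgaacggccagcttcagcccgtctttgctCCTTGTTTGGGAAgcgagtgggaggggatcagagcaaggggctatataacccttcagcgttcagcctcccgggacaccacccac
Cspg4: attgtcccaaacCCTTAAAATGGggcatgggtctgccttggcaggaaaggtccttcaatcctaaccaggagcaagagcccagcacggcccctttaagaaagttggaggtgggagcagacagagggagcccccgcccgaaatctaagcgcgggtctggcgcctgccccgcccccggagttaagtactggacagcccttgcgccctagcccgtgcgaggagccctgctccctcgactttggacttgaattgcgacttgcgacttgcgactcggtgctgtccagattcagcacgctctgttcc
Rgs5: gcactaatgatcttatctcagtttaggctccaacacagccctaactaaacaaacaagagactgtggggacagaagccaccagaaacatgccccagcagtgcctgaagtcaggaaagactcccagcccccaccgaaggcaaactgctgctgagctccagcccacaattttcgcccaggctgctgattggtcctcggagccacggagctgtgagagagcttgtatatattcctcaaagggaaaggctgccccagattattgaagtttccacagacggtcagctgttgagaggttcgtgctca
In the Acta2 window, CCCTATATGG begins 84 bases and CCTTGTTTGG 34 bases before the start, the latter overlaps TGGGAA at 27 bases, and GGAATG begins 146 bases before it. In the Cspg4 window 2 overlapping matches begin 238 and 237 bases before the start, and the Rgs5 window held none of these letters. Windows were given for 7 of the 10 markers (not for Tagln, Myh11 and Pdgfrb), and the other 4 of them held no match. Of 32851 RefSeq promoter windows of this length, 21.1% held a CArG box with at most 1 mismatch, 1.63% a full CArG box, 25.6% TGGGAA and 14.7% GGAATG. The search for boxes with a mismatch was added after the full box was found in none of the 7 windows.

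Myh11 (ENSMUSG00000018830.11, chromosome 16, 14194535 to 14291372, minus strand) encodes smooth muscle myosin heavy chain, the marker most restricted to mature smooth muscle. Its CPM was 8.55, 5.85, 5.08, 11.02 and 6.43 in control libraries 1 to 5 and 8.48, 7.99, 4.32, 7.05 and 7.23 in KO libraries 1 to 5. Its libraries did not follow Acta2 and Tagln: control library 3, the highest for both of these, was the lowest control library for Myh11. The log2 fold change was -0.07 with an interval of -0.54 to 0.40 (adjusted p = 0.957), and it changed sign without control library 4 (0.12), without KO library 3 (0.069) and with limma voom (0.031).

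Cnn1 (ENSMUSG00000001349.6, chromosome 9, 22099216 to 22109630, plus strand) encodes calponin 1, an actin-binding protein of differentiated smooth muscle. It had 3, 6, 6, 3 and 7 counts in control libraries 1 to 5 and 4, 7, 2, 8 and 3 counts in KO libraries 1 to 5. The group means were 0.221 ± 0.0693 and 0.222 ± 0.114 CPM (SD, n = 5 each, 2-sided exact permutation test, p = 0.881). With 25 counts in all control and 24 in all KO libraries, the 95% interval of the log2 fold change without a filter was -0.91 to 0.90. Changes within that interval remain compatible with these counts.

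Des (ENSMUSG00000026208.10, chromosome 1, 75360329 to 75368579, plus strand) encodes the intermediate filament desmin of pericytes and muscle. It was at 3.30, 2.92, 3.20, 4.74 and 3.17 CPM in control libraries 1 to 5 and at 3.72, 3.60, 2.71, 3.30 and 2.49 CPM in KO libraries 1 to 5. The KO values lay on both sides of the 4 tight control libraries and below control library 4. Its log2 fold change was -0.13 (95% interval -0.47 to 0.22, adjusted p = 0.859), and 0.013 without control library 4. Desmin is also made by skeletal muscle, whose 18 markers summed to 8.75 to 17.1 CPM in control and 7.07 to 16.3 CPM in KO libraries, with Pax7 at 0 counts in all 10 libraries and Acta1, the skeletal actin gene, the most abundant at 7.60 ± 1.61 and 7.14 ± 1.38 CPM (SD, n = 5 each, adjusted p = 0.91).

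Of 29 other contractile genes and SRF cofactors, 22 were tested, and 0 were lower and 0 were higher at the adjusted limit in edgeR's fit. At that limit 1.86% of all genes tested were lower and 0.308% higher. At an unadjusted p under 0.05, 7 of the 22 were lower and 1 was higher, beside 7.46% of all genes lower and 4.43% higher. The median log2 fold change was -0.13. DESeq2 and limma voom each called Fhl1, a LIM protein gene, higher (adjusted p = 0.00917 and 0.0155, against 0.0712 in edgeR's fit), and each called 1 gene lower, Pdlim7 by DESeq2 (adjusted p = 0.0457) and Tagln2 by limma voom (adjusted p = 0.0494). Without control library 4, edgeR's fit called Fhl1 higher (adjusted p = 0.0112). Tns1, the most abundant, was at 1044 ± 91.3 and 1075 ± 112 CPM (SD, n = 5 each, adjusted p = 0.917). Among the regulators, Srf was at 26.6 ± 1.43 and 25.9 ± 2.25 CPM, and Mrtfa, which carries actin signals to SRF, at 15.5 ± 1.11 and 15.5 ± 1.09 CPM (SD, n = 5 each, adjusted p = 0.901 and 0.998). Myocd, the smooth muscle coactivator myocardin, had 1 to 5 counts per library, and Pln, the phospholamban gene, had 0 in all 10, which allows up to 3 counts per library (0.112 to 0.157 CPM, counting error only).

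Per length, the markers spanned a range from Mcam to Cnn1 in control cultures. As levels in CPM per kb of exon, Mcam was at 20.7 ± 1.43, Pdgfrb at 16.7 ± 1.90, Tagln at 14.1 ± 3.43, Acta2 at 12.1 ± 3.51 and Cspg4 at 3.08 ± 0.578 in control cultures (SD, n = 5). Below these came Notch3 at 1.43 ± 0.203, Myh11 at 0.972 ± 0.317, Des at 0.924 ± 0.193, Rgs5 at 0.154 ± 0.0405 and Cnn1 at 0.0808 ± 0.0253 CPM per kb (SD, n = 5). The control ranges of neighbours in this order did not overlap between Mcam and Pdgfrb, Acta2 and Cspg4, Cspg4 and Notch3, and Des and Rgs5. Pdgfrb and Tagln, Tagln and Acta2, Notch3 and Myh11, Myh11 and Des, and Rgs5 and Cnn1 overlapped in range. The broad steps were 3.91-fold from Acta2 down to Cspg4 and 5.99-fold from Des down to Rgs5. In KO cultures the order was the same down to Des, while Rgs5, at 0.0614 ± 0.0255 CPM per kb, came after Cnn1, at 0.0813 ± 0.0415 CPM per kb (SD, n = 5 each, ranges overlapping). In the control order Mcam, Pdgfrb, Acta2 and Cspg4, named above as shared with fibroblasts and progenitors, ranked 1, 2, 4 and 5, with Tagln at 3. Notch3 ranked 6, Myh11 7, Des 8, Rgs5 9 and Cnn1 10. Which cells made each of these transcripts was not tested.

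**Figure D3:**
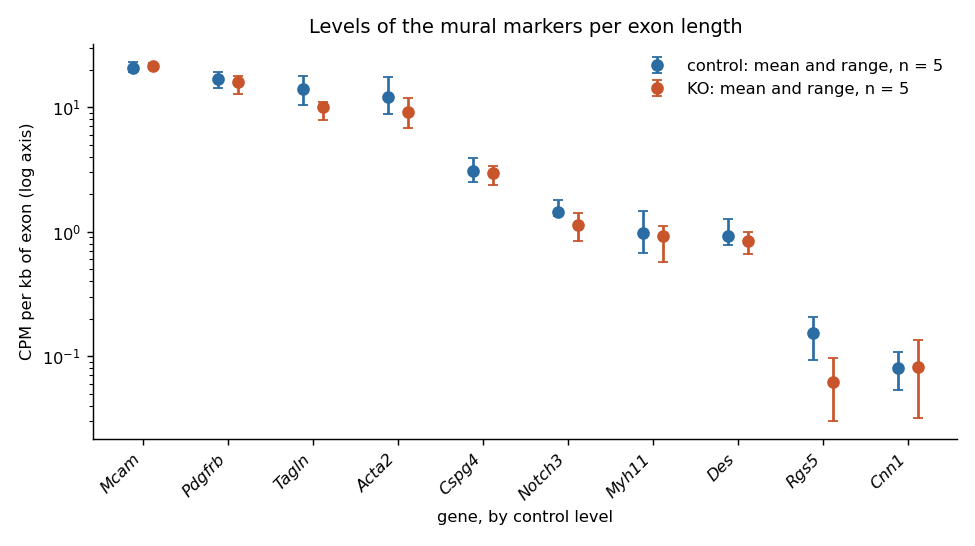
Level of each marker in CPM per kb of exon (log axis), in the order of the control means; points are means and bars the range of 5 libraries, control in blue and KO in orange. The lowest library of Mcam, Pdgfrb, Tagln or Acta2 is Acta2 at 6.76 CPM per kb in KO, and the highest of Rgs5 or Cnn1 is Rgs5 at 0.205 in control.

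The markers did not vary as 1 block among the libraries. Control library 4 was the highest of all 10 libraries for 6 markers (Pdgfrb, Cspg4, Myh11, Notch3, Des and Mcam), and control library 3 for Acta2 and Tagln. KO library 3 was the lowest for 7 markers (Pdgfrb, Cspg4, Acta2, Tagln, Myh11, Cnn1 and Notch3). Rgs5 had its highest value in control library 5 and its lowest in KO library 4, and among the KO libraries it was highest in library 3, where most other markers were lowest.

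**Figure D4:**
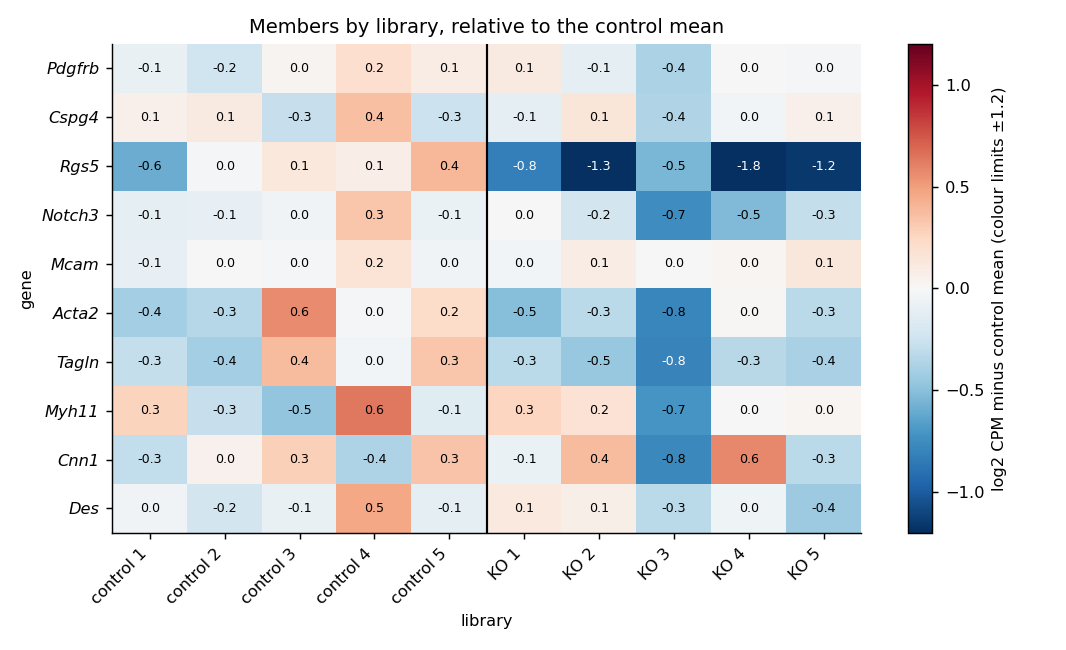
Log2 CPM of each marker (rows) in each library (columns, control left of the line and KO right of it) minus the control mean of that marker, with the value in each cell and colours limited to ±1.2. Blue cells in the Rgs5 row fill the KO side, the column of KO library 3 is blue for most markers, and the column of control library 4 is red for Myh11, Des, Cspg4 and Notch3.

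As a description of likeness over the 10 libraries, with the group means removed from log2 CPM, the 5 tested genes most like Acta2 were Mrps30 (Pearson's r = 0.96, Spearman's rho = 0.85), Aadac (0.95, 0.89), Cep112 (0.94, 0.93), Aldh1a2 (0.94, 0.93) and Glipr2 (0.91, 0.88). For Rgs5 they were Ldhb (r = 0.95, rho = 0.88), 2700033N17Rik (0.92, 0.84), Gm5529 (0.90, 0.82), St6galnac2 (0.90, 0.89) and Prrg2 (0.90, 0.81). They are the highest of 14270 values each, the 10 libraries share preparation and scaling, and the Rgs5 values rest on 3 to 22 counts per library.

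Genes of the PDGF pathway beside Pdgfrb included ligands that were lower. Of 9 such genes, all were tested, 4 were lower and 0 were higher, with a median log2 fold change of -0.10. The shares over all genes were 1.86% lower and 0.308% higher. Pdgfb, the ligand through which endothelial cells recruit pericytes, went from 4.55 ± 0.865 to 2.17 ± 0.825 CPM (SD, n = 5 each, log2 fold change -1.07, adjusted p = 0.0184), while its receptor gene Pdgfrb had the interval of -0.28 to 0.12 given above. Pdgfd, the other ligand of that receptor, changed by -0.51 (adjusted p = 0.0102) on the log2 scale, and Plat, whose protease activates a PDGF ligand, by -0.35 (adjusted p = 0.0365). Pdgfra, the receptor of progenitors and fibroblasts and the most abundant gene of the list, went from 223 ± 13.6 to 179 ± 11.6 CPM (SD, n = 5 each, log2 fold change -0.31, adjusted p = 0.00878). Pdgfa (0.09, adjusted p = 0.833) and Pdgfc (0.18, adjusted p = 0.495) did not pass. The count of 4 was 2 with the replicate number as a block in the fit, and also without control library 3, control library 5, or KO library 2, 3, 4 or 5.

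Other pericyte genes were lower in part. Of 26 on the list, 21 were tested, 4 were lower and 0 were higher, with a median log2 fold change of -0.22. Of all genes tested, 1.86% were lower and 0.308% higher. At an unadjusted p under 0.05 in edgeR's fit, 10 of the 21 were lower, beside 7.46% of all genes. Ednrb, the endothelin receptor B gene, which endothelial cells also express, went from 16.9 ± 0.940 to 8.24 ± 1.12 CPM (SD, n = 5 each, log2 fold change -1.04, adjusted p = 6.12e-05). The genes of both subunits of the nitric oxide receptor, soluble guanylate cyclase, were lower, with log2 fold changes of -0.84 for Gucy1a1 (adjusted p = 0.00114) and -0.53 for Gucy1b1 (adjusted p = 0.02). Postn, the matrix gene periostin and the most abundant of the list, changed by -0.31 (adjusted p = 0.0396). In control cultures Postn averaged 1753 CPM and Steap4, also on the list, 647 CPM. The 10 mural markers together summed to 247 to 312 CPM there, and which cells made Postn and Steap4 was not tested. The subunits of the pericyte potassium channel, Kcnj8 (-0.53, adjusted p = 0.162) and Abcc9 (-0.42, adjusted p = 0.124), had all KO libraries below all control libraries without passing the limit. Foxs1 (-0.93), Pth1r (-0.24), Tbx18 (-0.22) and Enpep (-0.15) were lower at an unadjusted p under 0.05 in edgeR's fit without passing the limit. Steap4, Vtn, Art3, Cox4i2 and Anpep had log2 fold changes of 0.05, -0.01, 0.07, 0.17 and -0.00, all with an adjusted p over 0.8. Ndufa4l2 had the highest log2 fold change of the list, 0.24 (adjusted p = 0.731). Of the 21 tested genes, 16 had a log2 fold change below 0 and 5 had one above 0. The selective pericyte gene Higd1b had 0 to 3 counts per library. The count of 4 was 2 with the replicate block, and also without control library 1, 3 or 5 or KO library 4 or 5.

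Among markers of other cell types, most endothelial and some progenitor and fibroblast genes were lower in KO cultures. For each count below, the shares over all genes tested were 1.86% lower and 0.308% higher at the adjusted limit. Of 25 endothelial markers, 20 were lower and 0 were higher, with a median log2 fold change of -1.18, and their sum was 294 to 405 CPM in control and 150 to 237 CPM in KO libraries with no marker at 0 in all libraries. Cdh5 (VE-cadherin) went from 53.1 ± 5.11 to 22.1 ± 3.67 CPM (SD, n = 5 each, adjusted p = 5.3e-05), Robo4 changed by -1.65 (adjusted p = 5.3e-05) and Egfl7 by -1.24 (adjusted p = 6.12e-05) on the log2 scale. Apln, the apelin gene, with the highest mean CPM of the list over all libraries, did not pass (-0.28, adjusted p = 0.808). Of 18 progenitor and fibroblast markers, 6 were lower and 0 higher of 17 tested, with a median of -0.31 and sums of 6350 to 7988 CPM in control and 5334 to 6496 CPM in KO libraries. Lum (-0.78, adjusted p = 0.00154) and Cd34 (-0.91, adjusted p = 0.00722) led this list, which shares Pdgfra with the PDGF genes, and Col3a1 was its most abundant gene (-0.47, adjusted p = 0.0182). The count of 6 was 3 without control library 5 or KO library 2 or 5. Of 14 macrophage markers only Cd163 was lower (-0.55, adjusted p = 0.00773), with Lyz2 the most abundant at 1116 ± 237 and 1161 ± 286 CPM (SD, n = 5 each). Of 10 Schwann cell markers only Ngfr was lower (-0.70, adjusted p = 0.00324), the most abundant of its list at 64.8 ± 11.3 and 39.9 ± 3.44 CPM (SD, n = 5 each). Of 15 adipocyte markers 0 passed in edgeR's fit, with 5 higher at an unadjusted p under 0.05, beside 4.43% of all genes. DESeq2 called Fabp4 (0.12, adjusted p = 0.0351) and the lipase gene Lipe (0.17, adjusted p = 0.0117) higher, and limma voom Lipe (0.18, adjusted p = 0.0241), as did edgeR's fit without control library 4 (0.20, adjusted p = 0.0327). Of the 4 skeletal muscle markers with enough counts, 0 passed with edgeR, DESeq2 or limma voom and 0 had an unadjusted p under 0.05 in edgeR's fit. The lists were written with earlier results of these data known, and the part of any of these cell types in the values of Rgs5, Notch3, Acta2 and Tagln was not tested.

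**Figure D5:**
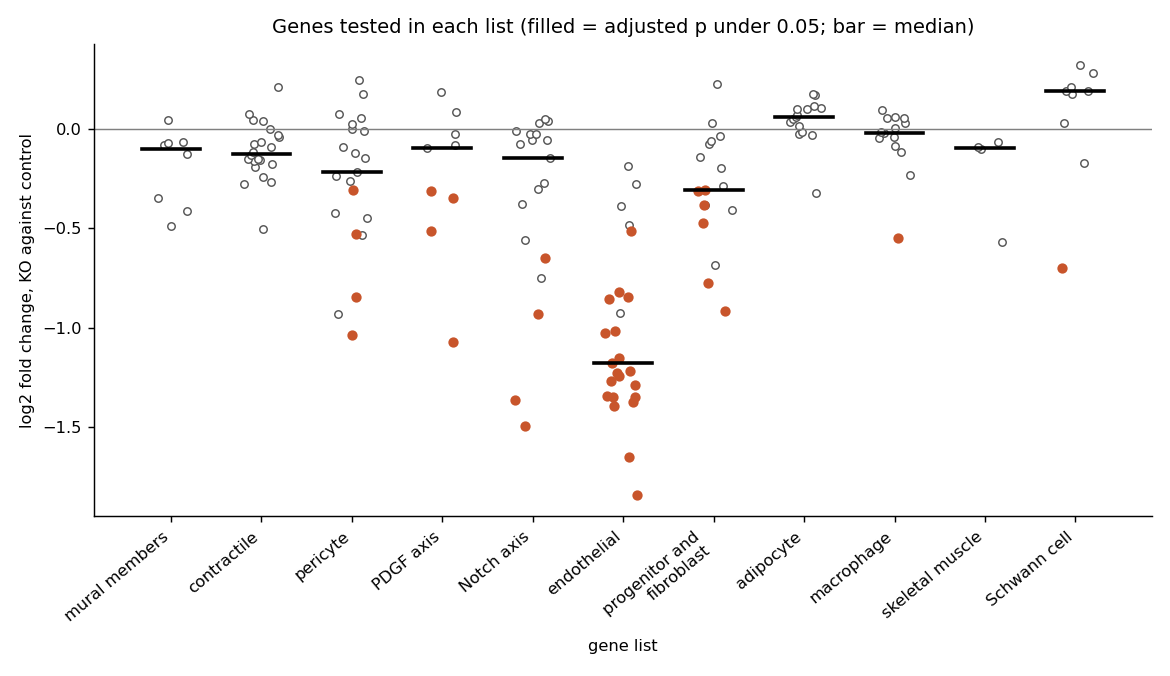
Log2 fold change of KO against control (vertical axis) of each tested gene in 11 lists, filled where the adjusted p is under 0.05, with the list's median as a bar. The 8 mural markers hold no filled point and lie between -0.49 and 0.04, the endothelial list has a median of -1.18, and the pericyte, PDGF and Notch lists each hold 4 filled points below 0.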

How the data were processed

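Primary adipocytes from inguinal SVF, 5 control and 5 KO libraries, were compared by RNA-seq. The authors prepared libraries with kits SMARTer v4 and Nextera XT, aligned paired reads to GRCm38.p6 by STAR, and counted fragments per gene with featureCounts. The deposited values are raw counts per gene, neither normalized nor filtered, with 0 columns of other samples.

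From these counts, edgeR 4.0.16 (R 4.3.3) dropped genes below filterByExpr's minimum count of 10, applied TMM and tested KO against control over all 14270 genes with the quasi-likelihood test, Benjamini-Hochberg adjustment and a limit of 0.05, without pairing. CPM used TMM library sizes, and log2 CPM a prior count of 2. Intervals are 95%. Exact permutation tests, 2-sided, were computed for all 10 markers and are printed for the 2 low ones and for Tagln, Notch3 and Acta2. Libraries of a group differed by more than sampling noise (chi-square per degree of freedom at least 3.29). The scripts were tested on simulated data.

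Positions and exon lengths came from GENCODE M21, which held 52125 of the 56748 genes, and promoters from RefSeq. At 18949106 to 26237825 counts per library, 1 count is worth 0.0375 to 0.0524 CPM. The markers, lists and tests were chosen with earlier results of these data known. Genes named are the 10 markers, Fam20c, the genes of each list with the smallest p past the limit (up to 4 for contractile, pericyte, PDGF and Notch genes and 3 for others), the most abundant of each list, and the 5 genes most like Acta2 and Rgs5. Other genes named, among them Jag1, Heyl, Srf, Mrtfa, Myocd, Pln, Pax7, Kcnj8, Abcc9, Higd1b, Fhl1, Pdlim7, Tagln2, Lipe, Pdgfa and Pdgfc, were chosen after their values were seen. Alternatives were DESeq2 1.42.0, limma 3.58.1 voom, other size factors and filters, a replicate block, and libraries left out.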

Additional observations from a re-analysis of the deposited data

Results flagged for a closer look

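Notch3 in control library 4 was at 14.5 CPM, against 10.7 to 11.2 CPM in the other 4 control libraries, a gap of 0.870 of the group's range where the 95% critical value of Dixon's ratio for 5 samples is 0.71. Des in the same library was at 4.74 CPM, against 2.92 to 3.30 CPM in the others, with a ratio of 0.791. Of 20 groups of 5 libraries tested for the 10 markers, 2 exceeded the critical value, where chance gives about 1. Without control library 4, the log2 fold change was -0.26 for Notch3 and 0.013 for Des.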

How the results depend on the processing

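The 8 tested markers gave 0 calls under each alternative, those with 1 library left out included. Rgs5, whose counts passed the filter in some of the fits with 1 library left out, raised the number of markers lower to 1 in 2 of them and left it at 0 in the others. It passed the filter there only through control libraries, the group where it was higher. Log2 fold changes with 1 library left out were -0.14 to -0.0096 for Pdgfrb, -0.13 to 0.030 for Cspg4, -0.52 to -0.25 for Acta2, -0.58 to -0.39 for Tagln, -0.17 to 0.12 for Myh11, -0.44 to -0.26 for Notch3, -0.18 to 0.013 for Des and 0.020 to 0.088 for Mcam. Differences of mean log2 CPM were -1.27 to -0.96 for Rgs5 (exact permutation p 0.0159 to 0.0238) and -0.20 to 0.14 for Cnn1. Myh11 was at 0.031 with limma voom and at 0.045 without control library 4 and KO library 1, where Cspg4 was at 0.045 and Rgs5 at -1.18 (exact permutation p = 0.0571). Rgs5 without a filter on low counts was at -1.32 with edgeR (adjusted p = 0.0569) and -1.33 with DESeq2 (adjusted p = 0.0682), and Cnn1 at 0.0063 with DESeq2. With the longest transcript as length, Tagln ranked 2 and Pdgfrb 3, and Des 7 and Myh11 8. The cause was not tested for any of these.

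Over all genes, 265 were lower and 44 higher. The number higher was 125 with DESeq2, 111 with limma voom, 145 without control library 4 and KO library 1, and 21 with the replicate block, under which 193 were lower. With 1 library left out, 164 (without KO library 2) to 323 (without control library 4) genes were lower and 19 (without control library 5) to 119 (without control library 4) were higher. The replicate numbers showed no clear pairing: deviations of same-numbered libraries correlated at -0.17, 0.09, 0.26, -0.25 and 0.03, and the block changed no call among the 8 markers. These correlations cannot show whether same-numbered cultures were prepared together, which the labels do not say. With the block, 2 pericyte and 2 PDGF genes were lower in place of 4 each, 3 Notch genes in place of 4, and 4 progenitor and fibroblast genes in place of 6, while 20 endothelial genes were lower as without it. The stricter filter left Rgs5 and Cnn1 out. Depth limits these 2 markers most, with at most 22 and 8 counts per library.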
